A study of Mus musculus with 24 samples.

Results

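The gene set described here comprised 10 genes that encode histone chaperones, out of 24456 genes in the count tables. Its members were chosen by symbol and role: *Supt16* and *Ssrp1*, the 2 subunits of FACT, *Supt6*, the CAF-1 subunits *Chaf1a* and *Chaf1b*, *Nasp*, the NAP1 family members *Nap1l1* and *Nap1l4*, and the nucleoplasmin family members *Npm1* and *Npm3*. All 10 were found in the tables and all 10 passed the filter on low counts. RNA of testis from mice homozygous for an *Atad2* knockout allele (KO) and from wild-type mice (WT) was sequenced at postnatal days 20, 22, 24 and 26, with 4 libraries per genotype at days 20 and 22 and 2 per genotype at days 24 and 26, 24 libraries in all. The study asked what loss of ATAD2, a bromodomain AAA ATPase of chromatin, does in male germ cells. In the KO, a *lacZ* cassette is spliced to an upstream *Atad2* exon, and the next exon and the *neo* cassette were removed by a cross to mice with ubiquitous CMV-driven Cre, so every cell of the animal carries the allele. The strain, and whether WT mice carried Cre, are not given in the sources used here. The study's methods call the replicates biological but name fewer for day 20 than the labels and count tables hold, and all 4 were used. The labels do not tie libraries to animals, so the p-values measure the spread between libraries.

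Histone chaperones are acidic proteins that hold histones away from DNA and hand them to and from nucleosomes. FACT opens and rebuilds nucleosomes in the path of polymerases, mainly by handling H2A-H2B, while SPT6 travels with RNA polymerase II and handles H3-H4. CAF-1 deposits newly made H3-H4 behind the replication fork, NASP keeps a soluble store of H3-H4, NAP1 proteins carry H2A-H2B, and nucleoplasmins bind core histones. In the testis, spermatogonia and early spermatocytes copy DNA, meiotic cells do not, and spermatids later exchange most histones for protamines. The days sampled span the arrival of round and then elongating spermatids, so the mixture of cells changes with age.

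Between 10709667 and 19491935 read pairs per library were assigned to genes. *Atad2* itself was lower in KO than in WT on every day without overlap, at 30.8 to 37.1 against 76.4 to 171 CPM (counts in each 1000000 assigned, with TMM scaling between libraries) on day 20 and at 52.5 to 53.0 against 113 to 138 CPM on day 26. Markers of somatic cells were present in all groups: none of the 8 Sertoli, 6 Leydig, 4 peritubular and 4 macrophage genes was at 0 in any group. The summed level of 7 elongating spermatid markers rose from 1.16 to 6.34 CPM in WT and 4.64 to 81.1 CPM in KO on day 20 to 1591 to 2686 CPM in WT and 2763 to 2812 CPM in KO on day 26. WT day 20 replicate 2 stood apart from the other libraries, with 13.7% of read pairs aligned to several places and 3.26% of counts from mitochondrial ribosomal RNA, against 4.74 to 9.16% and 0.17 to 1.06% in the other 23. Values that it moved by over 1.5 times are also given without it for the mean difference and the age change. In RNA of a whole tissue, fewer cells of a type and less RNA per cell cannot be told apart.

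No member passed the test between KO and WT on any day or over the mean of the 4 days (edgeR quasi-likelihood test, Benjamini-Hochberg adjusted p under 0.05 over 17170 genes). That is 0 of 10 members on day 20, where 3.34% of all genes tested passed, 0 of 10 on day 22 (2.51%), 0 of 10 on day 24 (0.0874%), 0 of 10 on day 26 (0.0466%) and 0 of 10 over the mean of the days (7.08%). The day 20 share moved with single libraries, from 0.882% without WT day 20 replicate 3 to 4.55% without KO day 20 replicate 2, with 0 members called. At an unadjusted p under 0.05 the counts were 1 (*Supt16*), 1 (*Chaf1b*), 0, 2 (*Chaf1b* and *Nap1l4*) and 2 (*Supt16* and *Chaf1b*), where 12.5%, 14.6%, 5.23%, 11.5% and 23.2% of all genes reached it. DESeq2 also called 0 members in each comparison, and 5.36%, 4.37%, 0.238%, 0.948% and 10.7% of genes. Over the mean of the days the members' log2 differences, KO over WT, ran from -0.19 (*Npm1*) to 0.23 (*Chaf1b*), with a median of 0.06 against 0.01 over all genes tested. Without WT day 20 replicate 2 they ran from -0.13 (*Supt16*) to 0.20 (*Chaf1b*), and *Npm1* was at -0.10. The 95% intervals of the 10 differences lay between -0.47 and 0.42, so that the bound farthest from 0 was a 1.38-fold difference. On single days the intervals were wider and reached -0.98 (*Npm1*) and 0.96 (*Chaf1b*) on day 26. Libraries of the genotypes did not overlap for 1 of 10 members on day 20, where this held for 4.71% of genes tested, for 1 on day 22 (8.09%), for 4 on day 24 (44.0%) and for 6 on day 26 (59.0%). The joint test over the days called 0 of 10 members and 0.00582% of genes, with members' adjusted p between 0.64 and 0.999 in edgeR. At an unadjusted p under 0.05 there were 0 members, where 9.06% of genes reached it.

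**Figure D1:**
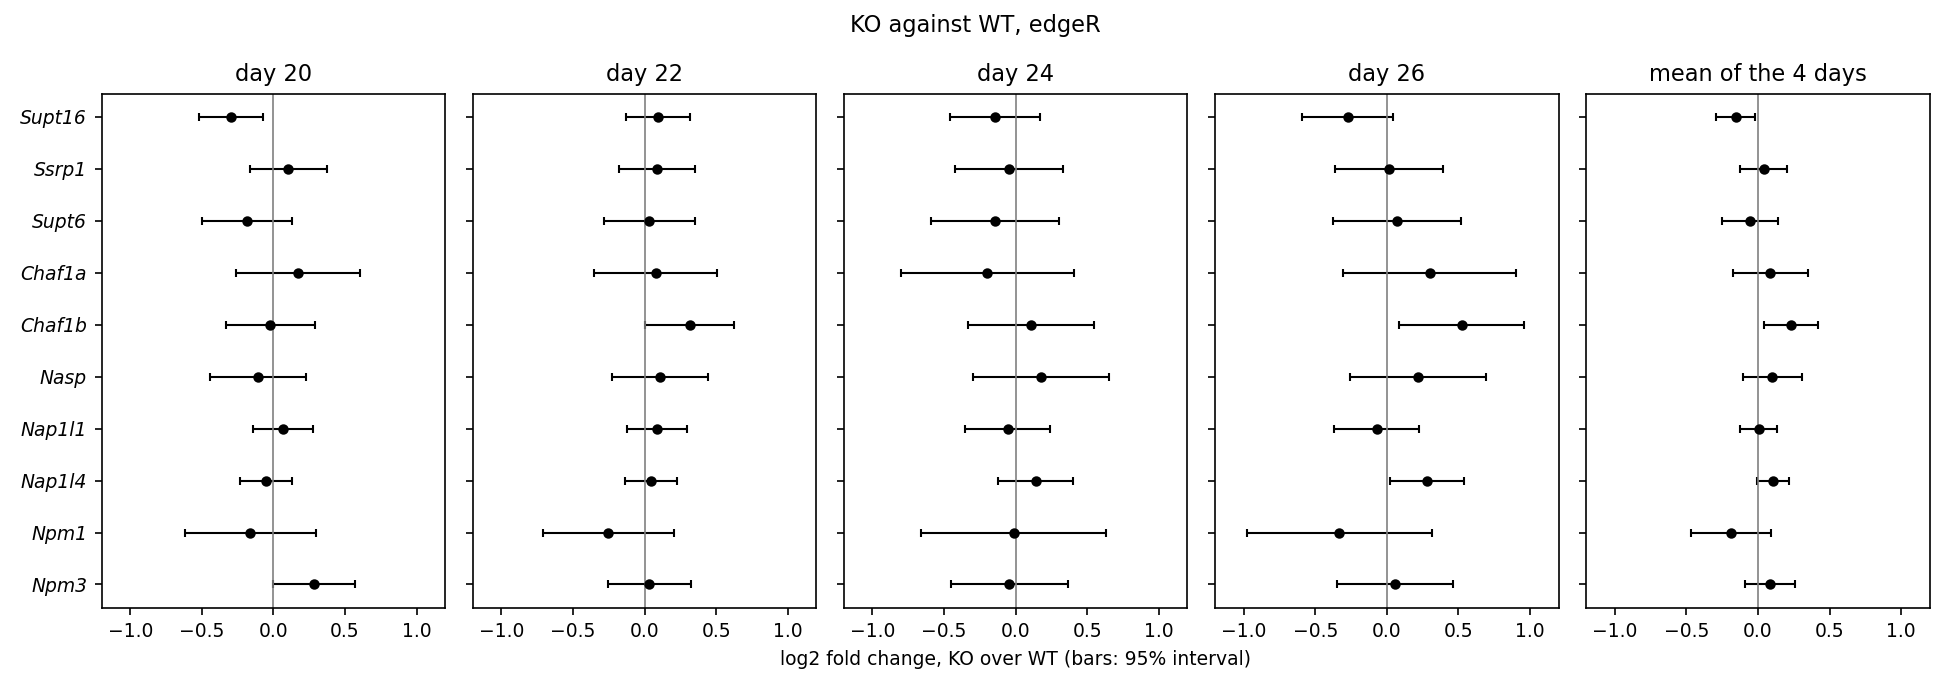
Log2 fold change of KO over WT (horizontal axis) for the 10 genes (vertical axis) on each day and over the mean of the 4 days, as points with 95% intervals from the edgeR fit. All adjusted p-values were above 0.05, and the mean over days lay between -0.19 for *Npm1* (-0.10 without WT day 20 replicate 2) and 0.23 for *Chaf1b*.

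With age, 3 members changed in each genotype. From day 20 to day 26, *Chaf1a* and *Nasp* rose and *Supt16* fell, in WT and in KO. In WT, 3 of 10 members passed, where 42.5% of all genes tested passed, and in KO 3 of 10, where 52.2% passed. The share of members was not tested against that of all genes. DESeq2 called the same genes and also *Ssrp1* in WT (0.40, adjusted p = 0.031) and *Ssrp1* (0.37, adjusted p = 0.045), *Chaf1b* (0.46, adjusted p = 0.026) and *Nap1l4* (0.33, adjusted p = 0.0042) in KO. The members' median log2 change was -0.08 in WT and 0.13 in KO, against -0.04 and -0.07 over all genes tested. Taken from group means of log2 CPM, the median change of all genes was -0.01 in WT and -0.05 in KO with TMM. With upper-quartile scaling it was -0.17 and -0.20. The directions of *Chaf1a*, *Nasp* and *Supt16* were unchanged under upper-quartile and relative log expression scaling. The difference between the age changes of KO and WT called 0 of 10 members in edgeR (0% of genes tested), with 2 members at an unadjusted p under 0.05 (*Chaf1b* and *Nap1l4*, where 10.8% of genes reached it) and 0 called by DESeq2 (1.31% of genes). The comparisons of day 26 and of day 22 with day 20 in a genotype share its day 20 libraries. The share of all genes whose day 20 and day 26 libraries did not overlap was not counted.

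**Figure D2:**
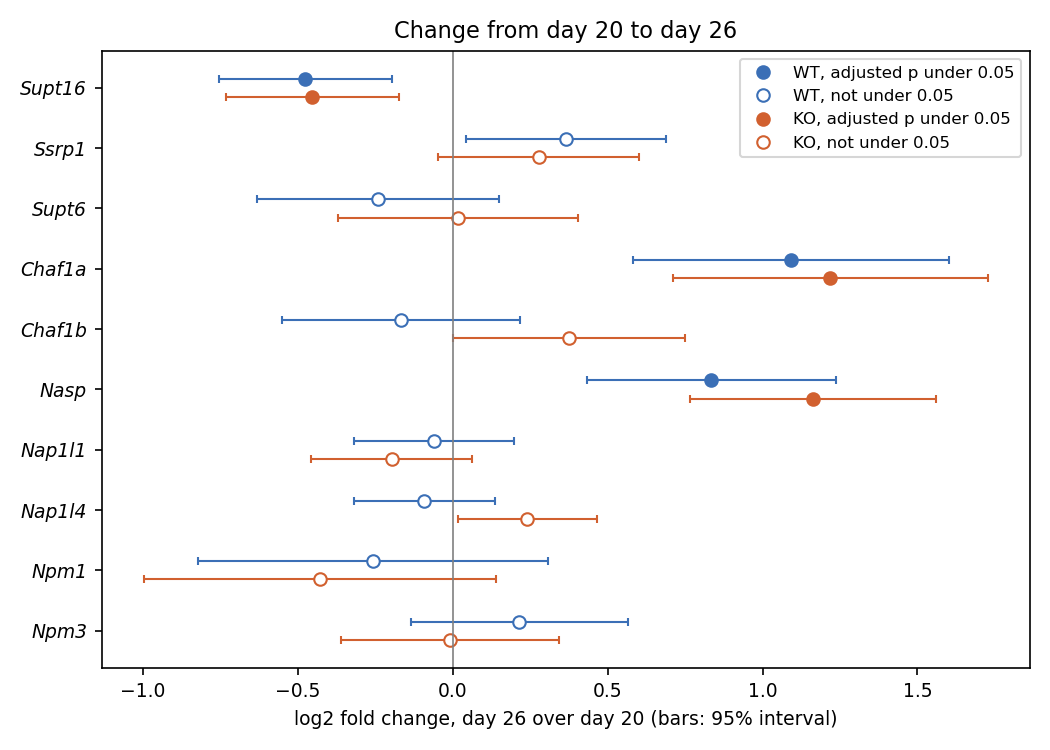
Log2 fold change from day 20 to day 26 (horizontal axis) for the 10 genes in WT (blue) and KO (orange), with 95% intervals. Filled points mark an adjusted p under 0.05, which *Supt16*, *Chaf1a* and *Nasp* reached in both genotypes, and open points mark the other genes.

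Between neighbouring days, members passed the edgeR test only in the first step when all groups were fitted together. From day 20 to day 22, WT called 2 of 10 members (*Supt16*, -0.37, edgeR adjusted p = 0.020, and *Chaf1a*, 0.64, adjusted p = 0.033), where 20.0% of genes passed. KO called 1 of 10 (*Nasp*, 0.59, edgeR adjusted p = 0.029), where 10.6% passed. No member was called from day 22 to day 24 in WT (5.92% of genes) or KO (0.402%), nor from day 24 to day 26 in WT (0.274%) or KO (0.0116%), with 0 members at an unadjusted p under 0.05 in each of these 4 edgeR comparisons and 0 called by DESeq2 (0.631 to 7.99% of genes). With only the groups of each step fitted, the changes from day 20 to day 22 stayed at -0.38 (*Supt16*, WT), 0.63 (*Chaf1a*, WT) and 0.60 (*Nasp*, KO) but 0 members passed, where 9.06% of genes passed in WT and 0% in KO. In those fits *Chaf1a* passed from day 22 to day 24 in WT (0.47, edgeR adjusted p = 0.046, where 9.48% of genes passed), and *Supt16* (-0.33), *Chaf1a* (0.47), *Nasp* (0.28) and *Npm1* (-0.26) passed from day 24 to day 26 in KO, where 41.8% of genes passed. These steps were added after the levels had been seen, and their calls depended on single libraries. Leaving out WT day 22 replicate 1 or 3 left 0 calls in WT, with 12.8% and 15.2% of genes called and changes of -0.34 and -0.33 for *Supt16* and 0.65 and 0.63 for *Chaf1a*. Leaving out WT day 20 replicate 1 or WT day 22 replicate 4 left 1 call (21.0% and 14.7% of genes), and without WT day 20 replicate 2 the change of *Chaf1a* was 0.40. In KO, leaving out day 20 replicate 1 or 2 or day 22 replicate 2 left 0, with 0.733%, 0.0233% and 0.0350% of genes called and changes of 0.62, 0.54 and 0.40 for *Nasp*. Leaving out WT day 20 replicate 2 or KO day 22 replicate 1 gave 2 (21.5% and 16.4% of genes).

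**Figure D3:**
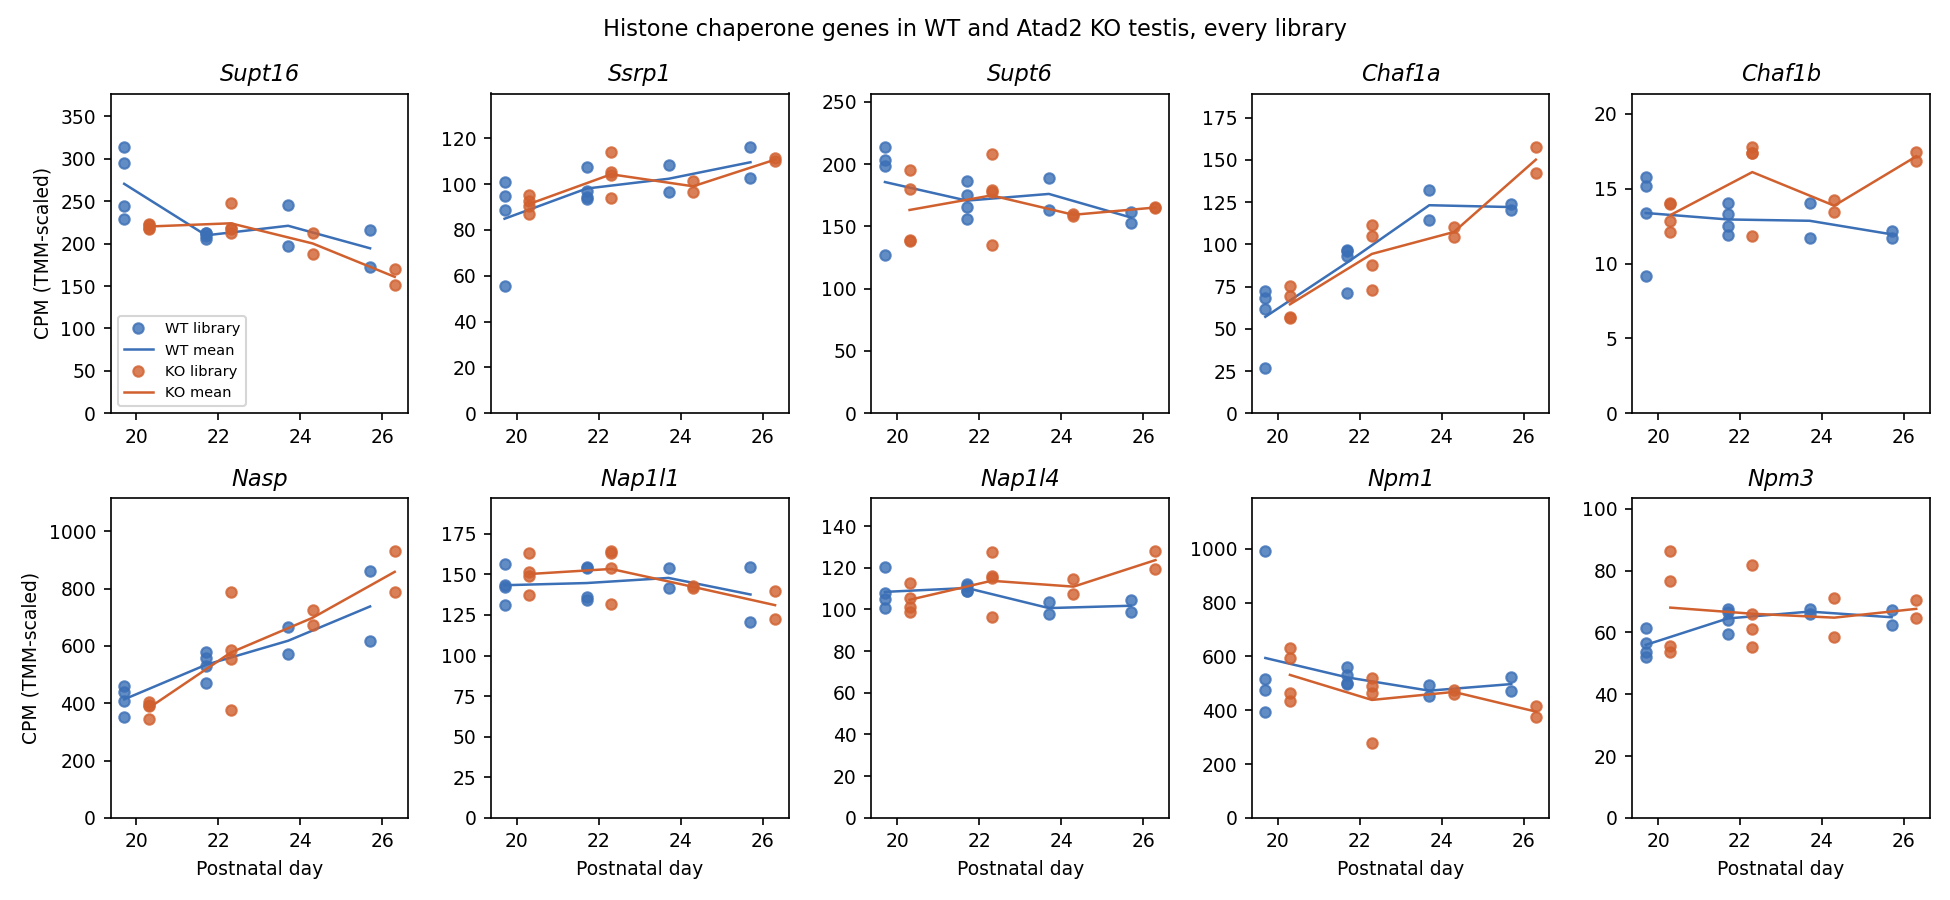
CPM (TMM-scaled, vertical axes from 0) of the 10 genes by postnatal day in every WT (blue) and KO (orange) library, with lines through the group means. *Chaf1a* and *Nasp* rose and *Supt16* fell with age. Replicate 2 is the lowest WT day 20 point for *Ssrp1*, *Chaf1a*, *Chaf1b*, *Nap1l1* and *Supt6* and the highest for *Supt16*, *Npm1* and *Npm3*.

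Per length of exon, the members covered a wide range of abundance. Over the 12 WT libraries the median level was 187 CPM per kb of exon for *Npm1*, 72.5 for *Nasp*, 53.3 for *Npm3*, 42.6 for *Supt16*, 34.4 for *Nap1l4*, 28.6 for *Nap1l1*, 25.9 for *Ssrp1*, 24.0 for *Supt6*, 10.7 for *Chaf1a* and 2.76 for *Chaf1b*. The 12 KO libraries gave the same order, from 174 CPM per kb for *Npm1* to 3.02 for *Chaf1b*. In 3 places of this order the WT libraries of neighbours did not overlap: *Npm1* (lowest 148 CPM per kb) and *Nasp* (highest 114), *Nap1l4* (lowest 31.5) and *Nap1l1* (highest 31.4), and *Supt6* (lowest 17.9) and *Chaf1a* (highest 14.9). The other neighbours overlapped, among them *Ssrp1* and *Supt6* (14.8 to 31.1 against 17.9 to 30.1 CPM per kb). Without WT day 20 replicate 2, *Chaf1a* (lowest 6.95) and *Chaf1b* (highest 3.37) did not overlap either. With the longest coding sequence in place of the exons, *Nap1l1* and *Nap1l4* moved above *Supt16* in median level (122 and 91.8 against 68.3 CPM per kb in WT), *Chaf1a* moved above *Supt6* (34.6 against 32.9), and *Nap1l1* and *Npm3* lay side by side (122 and 120.5). The order also changed with day: per kb of exon, *Supt16* measured a mean of 53.7 against 47.2 CPM for *Npm3* in WT on day 20 and 38.6 against 54.7 CPM on day 26.

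Of the FACT subunits, *Supt16* passed the edgeR test with age in both genotypes, and whether *Ssrp1* passed depended on the tool, the scaling, the model and the libraries fitted. *Supt16*, the large subunit (mm10 chr14:52160414-52197416, minus strand), measured 295, 314, 229 and 244 CPM in WT replicates 1 to 4 on day 20 and 173 and 216 CPM on day 26. In KO it measured 219, 222, 217 and 223 CPM on day 20 and 170.1 and 152 CPM on day 26. Every day 26 library thus lay below every day 20 library of its genotype. The log2 change was -0.48 (SE 0.13, edgeR adjusted p = 0.0072) in WT and -0.45 (SE 0.13, adjusted p = 0.0080) in KO, a 1.39-fold and a 1.37-fold fall. With only the WT day 20 and 26 libraries fitted the WT change was -0.47 (edgeR adjusted p = 0.17). Without WT day 26 replicate 1 it was -0.33 (edgeR adjusted p = 0.14), and without KO day 26 replicate 2 the KO change was -0.39 (adjusted p = 0.096).

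Between genotypes, *Supt16* was lower in all 4 KO than in all 4 WT libraries on day 20. The log2 difference was -0.30 (SE 0.11, 95% interval -0.52 to -0.07, edgeR adjusted p = 0.18), or -0.23 without WT day 20 replicate 2. On day 22 the order was the reverse by a narrow gap, with WT at 205 to 213.02 CPM and KO at 213.07 to 248 CPM. The log2 difference on that day was 0.09 (SE 0.11, edgeR adjusted p = 0.83). On day 24 WT measured 245 and 197 and KO 188 and 213 CPM, and on day 26 both KO libraries were again the lower ones. Over the mean of the days the difference was -0.15 (SE 0.07, 95% interval -0.29 to -0.02, edgeR adjusted p = 0.16). A score of germ cell stage, the mean log2 level of 8 round spermatid genes minus that of 7 pachytene genes with each gene centred on its mean over the 24 libraries, ran from -2.10 to 0.33 in KO and from -3.10 to -1.86 in WT on day 20. With the score in the model the day 20 difference was -0.23 (edgeR adjusted p = 0.67).

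*Ssrp1*, the HMG-box subunit of FACT (chr2:85037234-85047109, plus strand), measured 101, 55.4, 94.8 and 88.6 CPM in WT on day 20 and 103 and 116 CPM on day 26. In KO it measured 86.8, 92.6, 90.5 and 95.4 CPM on day 20 and 110.1 and 111 CPM on day 26. Both day 26 groups lay above their day 20 groups without overlap. The change did not pass in either genotype in the main edgeR fit of all 24 libraries with TMM scaling and no covariate (WT 0.37, SE 0.16, edgeR adjusted p = 0.063, and KO 0.28, SE 0.16, adjusted p = 0.14). The WT change was 0.17 without day 20 replicate 2, the library at 55.4 CPM. Besides DESeq2, the WT change passed with relative log expression scaling and with the replicate block (edgeR adjusted p = 0.041 in each), and the KO change with the KO groups fitted alone (0.32, adjusted p = 0.016). Leaving out WT day 20 replicate 1 gave 0.42 in WT (edgeR adjusted p = 0.041), and leaving out WT day 20 replicate 2 gave 0.28 in KO (adjusted p = 0.021). KO over WT was 0.04 (95% interval -0.12 to 0.20, edgeR adjusted p = 0.82) over the mean of the days, or 0.0050 without WT day 20 replicate 2.

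The ratio of *Supt16* to *Ssrp1* counts within a library, which no scaling between libraries touches, was lower on day 26 than on day 20. It was 2.92, 5.67, 2.41 and 2.76 in WT on day 20 and 1.68 and 1.86 on day 26, and 2.52, 2.40, 2.40 and 2.33 in KO on day 20 and 1.54 and 1.36 on day 26. No day 26 library reached the lowest day 20 library of its genotype, and this held without WT day 20 replicate 2, the library at 5.67. At days 22 and 24 the ratio lay between 1.94 and 2.31 in all 12 libraries. The ratio was computed after the levels had been seen and is given with no test, as is the ratio for CAF-1.

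*Supt6*, the elongation factor SPT6 (chr11:78206746-78245987, minus strand), measured 214, 127, 203 and 199 CPM in WT and 138, 139, 180.3 and 195 CPM in KO on day 20. Replicate 2 of WT and replicates 1 and 2 of KO were the low libraries, and the genotypes overlapped. KO day 22 replicate 1, at 135 CPM, was likewise below its 3 group mates at 177 to 208 CPM. On day 26 it was 153 and 162 CPM in WT and 165 and 166 CPM in KO. Its age change was -0.24 (95% interval -0.63 to 0.15, edgeR adjusted p = 0.31) in WT, and -0.43 (edgeR adjusted p = 0.034) without WT day 20 replicate 2. In KO it was 0.02 (95% interval -0.37 to 0.40, edgeR adjusted p = 0.94), and over the mean of the days KO differed from WT by -0.06 (95% interval -0.25 to 0.14, adjusted p = 0.78), or by -0.09 without that WT library and -0.18 (adjusted p = 0.33) with the stage score, described for *Supt16*, in the model.

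Of the CAF-1 subunits, *Chaf1a* passed the edgeR test with age in both genotypes, and *Chaf1b* passed only in KO and only under some settings. *Chaf1a*, the large subunit (chr17:56040439-56072289, plus strand), rose with age. It measured 72.3, 26.6, 61.5 and 68.0 CPM in WT on day 20, 71.1 to 96.9 CPM on day 22, 132 and 114 CPM on day 24 and 120.4 and 124 CPM on day 26. In KO it measured 56.3, 57.2, 69.3 and 75.2 CPM on day 20, 73.2 to 112 CPM on day 22, 110.4 and 104 CPM on day 24 and 158 and 143 CPM on day 26. Days 20 and 26 did not overlap in either genotype. The log2 change was 1.09 in WT (SE 0.25, 2.13-fold, edgeR adjusted p = 0.0012) and 1.22 in KO (SE 0.24, 2.33-fold, adjusted p = 0.00036). Without WT day 20 replicate 2, at 26.6 CPM, the WT change was 0.82. The call held in each of the 24 fits that left out 1 library, and was lost in WT when only the WT day 20 and 26 libraries were fitted (1.10, edgeR adjusted p = 0.051). KO over WT was 0.09 (95% interval -0.17 to 0.35, edgeR adjusted p = 0.74) over the mean of the days, or 0.03 without WT day 20 replicate 2.

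*Chaf1b*, the middle subunit of CAF-1 (chr16:93883901-93906115, plus strand), was the least abundant member. It measured 15.8, 9.16, 13.4 and 15.2 CPM in WT on day 20, 11.9 to 14.0 CPM on day 22, 14.0 and 11.7 CPM on day 24 and 11.7 and 12.2 CPM on day 26. In KO it measured 14.0, 12.1, 12.8 and 14.0 CPM on day 20, 11.9, 17.8, 17.4 and 17.4 CPM on day 22, 13.5 and 14.3 CPM on day 24 and 16.9 and 17.4 CPM on day 26. On day 26 both KO libraries were above both WT libraries, and on day 22 the 3 KO libraries other than replicate 1 were above all WT libraries. The log2 difference of KO over WT was 0.32 (SE 0.15, edgeR adjusted p = 0.33) on day 22, 0.52 (SE 0.21, 95% interval 0.08 to 0.96, adjusted p = 0.35) on day 26 and 0.23 (SE 0.09, 95% interval 0.04 to 0.42, adjusted p = 0.13) over the mean of the days. The latter was 0.26 (edgeR adjusted p = 0.049) without KO day 22 replicate 1, and the day 26 difference was 0.53 (adjusted p = 0.038) when only day 26 was fitted. With the stage score in the model the difference was 0.18 on day 22 and 0.56 (edgeR adjusted p = 0.20) on day 26. The mean difference was then 0.14 (adjusted p = 0.50). Without WT day 20 replicate 2 the day 26 and mean differences were 0.55 and 0.20. The age change was -0.17 in WT (95% interval -0.55 to 0.22, edgeR adjusted p = 0.49), or -0.35 (adjusted p = 0.073) without WT day 20 replicate 2, and 0.37 in KO (95% interval 0.00 to 0.75, adjusted p = 0.085). The KO change passed in DESeq2, with relative log expression scaling (0.46, edgeR adjusted p = 0.035), with the KO groups fitted alone (0.42, adjusted p = 0.021) and without WT day 20 replicate 2 (0.37, adjusted p = 0.030). The difference of the edgeR age changes was 0.54 (SE 0.26, adjusted p = 0.46).

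In counts, *Chaf1a* over *Chaf1b* was 4.58, 2.91, 4.61 and 4.47 in WT on day 20 and 10.3 and 10.1 on day 26. In KO it was 4.02, 4.72, 5.41 and 5.36 on day 20 and 9.35 and 8.17 on day 26. Days 20 and 26 did not overlap in either genotype, and on days 24 and 26 both KO libraries lay below both WT libraries (7.31 and 8.19 against 9.41 and 9.79 on day 24). The third CAF-1 subunit, *Rbbp4*, which also serves other chromatin complexes, changed by -0.07 in WT (edgeR adjusted p = 0.81) and by -0.42 in KO (adjusted p = 0.10).

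**Figure D4:**
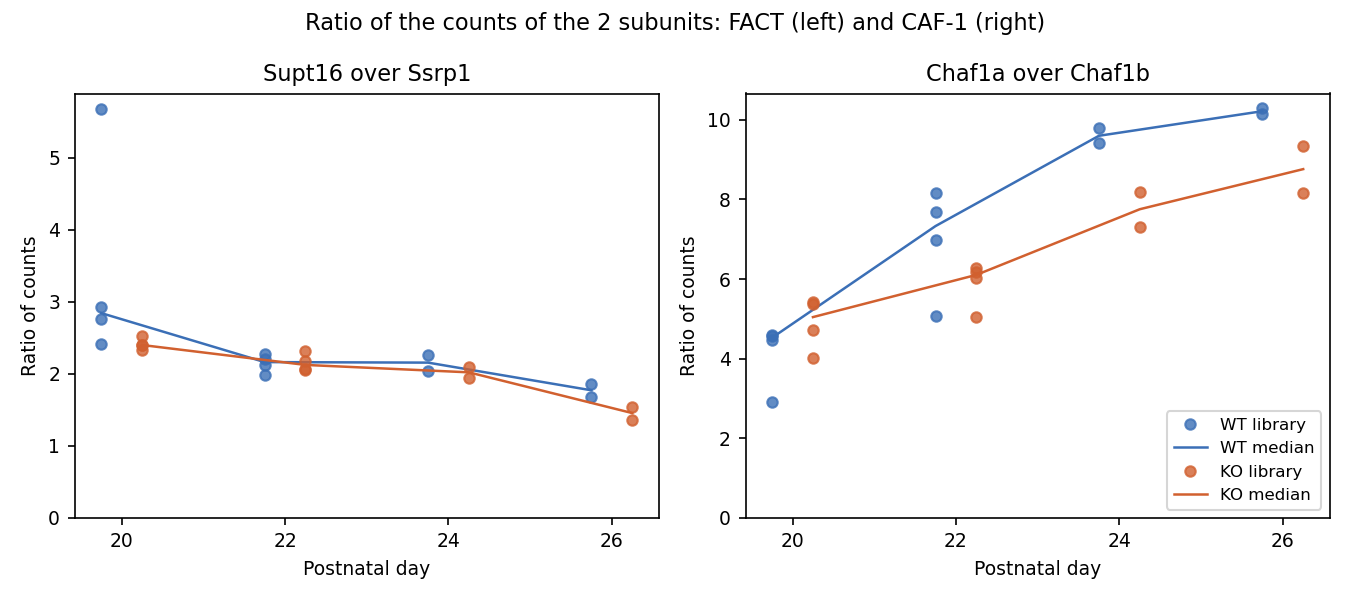
Ratio of raw counts (vertical axes from 0) of *Supt16* over *Ssrp1* (left) and *Chaf1a* over *Chaf1b* (right) by postnatal day, each point a WT (blue) or KO (orange) library and each line the group medians. The FACT ratio fell to between 1.36 and 1.86 on day 26 and the CAF-1 ratio rose to between 8.17 and 10.3, and the point at 5.67 is WT day 20 replicate 2.

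*Nasp* (chr4:116601052-116627941, minus strand), whose testis form is a major germ cell histone chaperone, rose with age. It measured 438, 407, 351 and 459 CPM in WT on day 20, 470.2 to 577 CPM on day 22, 666 and 570.5 CPM on day 24 and 616 and 860.1 CPM on day 26. In KO it measured 405, 345, 391 and 393 CPM on day 20, 378, 789, 585 and 556 CPM on day 22, 672 and 725 CPM on day 24 and 930.2 and 787 CPM on day 26. All day 26 libraries were above all day 20 libraries, and KO day 22 replicate 1 remained at the day 20 level. The log2 change was 0.84 in WT (SE 0.19, 1.78-fold, edgeR adjusted p = 0.0015) and 1.16 in KO (SE 0.19, 2.24-fold, adjusted p = 5.4e-05). Without WT day 26 replicate 2 the WT change was 0.57 (edgeR adjusted p = 0.083). The difference of the changes was 0.33 (95% interval -0.25 to 0.91, edgeR adjusted p = 0.76), and KO over WT was 0.10 (95% interval -0.11 to 0.30, adjusted p = 0.60) over the mean of the days.

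The 3 age calls moved together with the cell makeup of the tissue, and the stage score was the only measure of that makeup put in the model. From day 20 to day 26, 7 of 8 round spermatid markers rose in WT and 8 of 8 in KO, and 6 of 8 spermatogonial markers fell in WT and 5 of 8 in KO (edgeR adjusted p under 0.05). By the same test, 4 of 8 Sertoli markers fell in WT and 5 of 8 in KO, and 2 of 4 peritubular markers fell in WT and 3 of 4 in KO. Of the Leydig markers, 6 of 6 rose in WT and 2 of 6 in KO, and 0 of 4 macrophage markers passed in either genotype. The stage score itself rose from between -3.10 and -1.86 on day 20 to 1.91 and 1.92 on day 26 in WT. In KO it rose from between -2.10 and 0.33 to 1.67 and 1.71, so that the age changes of the genotypes spanned unlike ranges of the score. On day 22 it ran from -0.45 to -0.04 in WT and from 0.03 to 1.29 in KO. With that score in the model no member passed in either genotype, where 0% of genes tested passed in WT and 9.98% in KO. The standard error for *Chaf1a* in WT was then 0.53, against 0.25 without the score. The changes were -0.15 (WT) and 0.52 (KO) for *Chaf1a*, -0.05 and 0.66 for *Nasp* and -0.31 and -0.36 for *Supt16*, and the values farthest from 0 in WT were those of *Supt6* (-1.25, edgeR adjusted p = 0.27) and *Npm3* (1.19, adjusted p = 0.25).

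Promoter windows from RefSeq (GRCm38.p6) were matched for 8 of the 10 members, with 2 start sites for *Ssrp1*. *Nap1l4* and *Npm1* were not matched. The 250 bases before the start are shown for *Chaf1a* and *Nasp*, the members that rose together, and for *Chaf1b*, the partner of *Chaf1a*. The change of *Chaf1b* did not pass in the main edgeR fit and passed in KO under some other settings. They lie at chr17:56040166-56040415 (plus strand), chr4:116627952-116628201 (minus strand) and chr16:93883651-93883900 (plus strand), outside the annotated gene. Capitals mark matches on either strand to the E2F letters TTTCCCGC, TTTGGCGC, TTTCGCGC or TTTGCCGC, to CCAAT, and to the cell cycle element TTTGAA, and no match overlapped another.
Chaf1a: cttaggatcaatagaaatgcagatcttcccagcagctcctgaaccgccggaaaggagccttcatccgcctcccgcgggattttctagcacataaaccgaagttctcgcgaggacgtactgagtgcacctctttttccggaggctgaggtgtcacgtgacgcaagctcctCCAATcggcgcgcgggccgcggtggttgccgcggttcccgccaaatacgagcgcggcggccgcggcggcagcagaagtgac
Nasp: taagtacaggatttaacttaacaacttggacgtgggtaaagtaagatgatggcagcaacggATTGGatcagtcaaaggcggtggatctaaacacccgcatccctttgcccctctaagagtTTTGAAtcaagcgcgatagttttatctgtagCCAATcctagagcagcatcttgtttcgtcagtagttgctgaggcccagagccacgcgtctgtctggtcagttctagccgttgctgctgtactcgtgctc
Chaf1b: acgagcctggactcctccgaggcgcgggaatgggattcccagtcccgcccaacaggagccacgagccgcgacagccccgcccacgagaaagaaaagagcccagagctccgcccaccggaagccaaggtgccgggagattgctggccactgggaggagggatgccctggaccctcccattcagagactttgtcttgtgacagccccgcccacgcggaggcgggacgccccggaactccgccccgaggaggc
*Chaf1a* held 1 CCAAT, 81 to 77 bases before the start. *Nasp* held 2 CCAAT, 1 on each strand, and 1 TTTGAA 130 to 125 bases before the start. *Chaf1b* held none of these letters in the window. Of the 32851 promoters in the table, 33.8% held CCAAT, 16.0% held TTTGAA and 1.86% held an E2F match in the same 250 bases. The only E2F match among the members was TTTCCCGC on the minus strand, 231 to 224 bases before the second *Ssrp1* start, and the windows of *Supt16*, *Supt6* and *Npm3* held no match of any kind. These are matches of letters and not sites of binding.

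Neither NAP1 family member passed the test with age in the main edgeR fit (all 24 libraries, TMM scaling, no covariate), and each passed in KO under other settings. *Nap1l1* (chr10:111473223-111498150, plus strand) measured 143, 131, 157 and 142 CPM in WT on day 20 and 121 and 155 CPM on day 26. In KO it measured 151, 163, 137 and 149 CPM on day 20 and 139.7 and 122 CPM on day 26. The ages and genotypes overlapped, with changes of -0.06 (95% interval -0.32 to 0.20, edgeR adjusted p = 0.72, or -0.14 without WT day 20 replicate 2) in WT and -0.20 (95% interval -0.46 to 0.06, adjusted p = 0.19) in KO, with upper-quartile scaling giving -0.35 (adjusted p = 0.022) in KO, and a mean difference of 0.01 (95% interval -0.12 to 0.14, adjusted p = 0.97, or -9.4e-05 without WT day 20 replicate 2) between genotypes. Of its 75-base windows, 23.7% also occur in *Gm4204*, and pairs with several alignments had been discarded, so that its level is uncertain.

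*Nap1l4* (chr7:143513579-143549106, minus strand), also an H2A-H2B carrier, measured 120.5, 108, 101 and 105 CPM in WT and 113, 98.9, 101 and 106 CPM in KO on day 20. On day 26 it measured 98.9 and 105 CPM in WT and 128 and 119.5 CPM in KO. The KO libraries were above the WT libraries on days 24 and 26 without overlap. The difference on day 26 was 0.28 (SE 0.13, 95% interval 0.02 to 0.54, edgeR adjusted p = 0.39), and that over the mean of the days was 0.10 (95% interval -0.01 to 0.22, adjusted p = 0.26). The age change was -0.09 in WT (95% interval -0.32 to 0.14, edgeR adjusted p = 0.52) and 0.24 in KO (95% interval 0.02 to 0.47, adjusted p = 0.065). The KO change passed in DESeq2, with relative log expression scaling (0.33, edgeR adjusted p = 0.017) and with the KO groups fitted alone (0.29, adjusted p = 0.031), as well as without KO day 20 replicate 1, WT day 20 replicate 2 or KO day 22 replicate 1 (0.28, 0.24 and 0.24). The edgeR age changes differed by 0.33 (SE 0.15, adjusted p = 0.44).

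*Npm1*, nucleophosmin (chr11:33152287-33163206, minus strand), a nucleolar chaperone also needed for ribosome assembly, had the highest level per kb of exon. In CPM, *Nasp* was above it in every library of days 24 and 26. It measured 394, 990.2, 476 and 516 CPM in WT and 594, 631, 465 and 434 CPM in KO on day 20, and 491, 519.7, 465 and 277 CPM in KO on day 22. WT day 20 replicate 2 and KO day 22 replicate 4 were the extremes. They were also the libraries with the highest and the lowest share of read pairs with several alignments, 13.7% and 4.74%. Across the 24 libraries the share and log2 *Npm1* level had a Pearson r of 0.86 and a Spearman rho of 0.49, and r was 0.42 without these 2 libraries. For *Ssrp1*, *Chaf1b* and *Chaf1a* r was -0.80, -0.65 and -0.57, and -0.29, -0.33 and -0.08 without these libraries. Of the 75-base windows of *Npm1*, 30.9% occur in 7 other annotated genes, against 0% for those 3 members, and the part of this in its level was not tested.

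On day 26 *Npm1* measured 471 and 523 CPM in WT and 416 and 373 CPM in KO, with both KO libraries lower. The difference was -0.33 (95% interval -0.98 to 0.31, edgeR adjusted p = 0.72), and over the mean of the days it was -0.19 (95% interval -0.47 to 0.09, adjusted p = 0.43), or -0.10 without WT day 20 replicate 2. The age change was -0.26 in WT (95% interval -0.82 to 0.31, edgeR adjusted p = 0.46), turning to 0.06 without day 20 replicate 2, and -0.43 in KO (95% interval -0.997 to 0.141, adjusted p = 0.20).

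**Figure D5:**
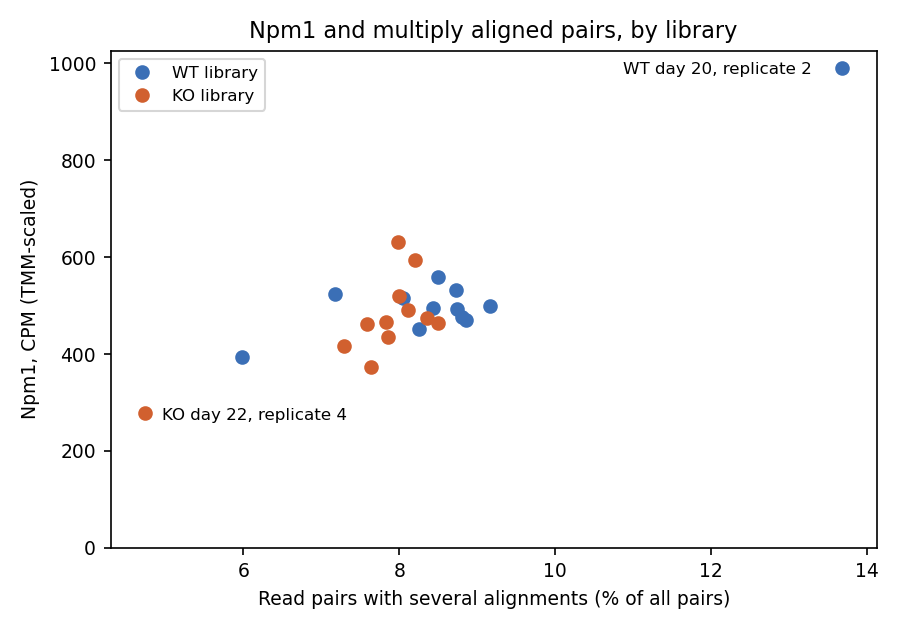
*Npm1* level (CPM, TMM-scaled, vertical axis from 0) against the share of read pairs with several alignments (percent, horizontal axis) in the 12 WT (blue) and 12 KO (orange) libraries. WT day 20 replicate 2 (13.7%, 990.2 CPM) and KO day 22 replicate 4 (4.74%, 277 CPM) lie at the ends.

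*Npm3* (chr19:45747734-45749591, minus strand), a small nucleoplasmin, measured 56.7, 61.5, 52.0 and 53.8 CPM in WT and 86.3, 76.6, 53.8 and 55.6 CPM in KO on day 20. Replicates 1 and 2 of KO were high and the other pair lay among the WT libraries. The same KO libraries were the low ones for *Supt6*, and KO day 22 replicate 1 had both the highest *Npm3* (81.9 CPM) and the lowest *Supt6* of its group. The day 20 difference was 0.28 (SE 0.14, 95% interval -0.01 to 0.57, edgeR adjusted p = 0.42), and it was 0.15 without KO day 20 replicate 1 and 0.64 (adjusted p = 0.22) with the stage score in the model. *Npm3* changed with age by 0.22 in WT (95% interval -0.13 to 0.56, edgeR adjusted p = 0.32) and by -0.01 in KO (95% interval -0.36 to 0.34, adjusted p = 0.97), and KO over WT was 0.08 (95% interval -0.09 to 0.26, adjusted p = 0.61) over the mean of the days, or 0.20 (adjusted p = 0.22) with the stage score. The level is uncertain, since 24.6% of its 75-base windows occur in *Npm3-ps1*.

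Of 18 further H3-H4 chaperones and importers, 6 passed from day 20 to day 26 in WT, 3 up and 3 down, and 8 in KO, 3 up and 5 down, with medians of -0.13 and -0.22, beside the 42.5% and 52.2% of all genes that passed. *Ipo4*, which imports H3-H4, rose like *Chaf1a* and *Nasp* (WT 1.14, KO 1.15, edgeR adjusted p = 0.0011 and 0.00088), and *Daxx* rose by 0.76 in WT (adjusted p = 0.010). *Mcm2*, a replicative helicase subunit that binds H3-H4, fell by 0.89 in WT, and *Atrx*, the partner of *Daxx*, fell by 0.87 (edgeR adjusted p = 0.003). Of 11 tested among 12 other H2A-H2B and acidic chaperones, 3 fell and 0 rose in WT, with a median of -0.13, among them *Nap1l3* by 0.98 (edgeR adjusted p = 0.024) and *Ncl*, nucleolin, by 0.83 (adjusted p = 5.0e-05). In KO, 6 of these fell and 2 rose, with a median of -0.46.

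Of the 8 elongation factors that work beside SPT6 and FACT, 0 passed in WT and 3 rose in KO, with medians of 0.07 and 0.15. Of 23 replication fork and S phase genes, 8 fell and 2 rose in each genotype, with medians of -0.39 in WT and -0.22 in KO, beside 42.5% (WT) and 52.2% (KO) of all genes that passed in either direction. Both risers in WT were clamp loader subunits, *Rfc2* (0.50, edgeR adjusted p = 0.009) and *Rfc1* (0.30, adjusted p = 0.041), and DNA polymerase alpha (*Pola1*) fell by 0.92 (adjusted p = 0.009). Between genotypes, over the mean of the days, none of the 18, 11 and 8 genes of the first 3 lists passed, and 2 of the 23 did, where 7.08% of all genes passed. These were the helicase subunits *Mcm6*, lower in KO (-0.24, edgeR adjusted p = 0.029), and *Mcm7*, higher in KO (0.21, adjusted p = 0.040).

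The genes whose pattern over the 24 libraries was most like a member were found by the root mean square (RMS) difference of centred log2 CPM, given as a description. For *Supt16* they included *Fancm* and *Mtr* (RMS 0.11 each). For *Ssrp1* they were *Dcaf8* (0.06), *Ercc3* (0.07) and *Cerk* (0.08), and for *Chaf1a* they were *Ift172*, *Ppm1g* and *Ralgds* (RMS 0.08 each). For *Chaf1b* they were *Kars*, *Babam1* (0.11 each) and *Eif2ak1* (0.12), for *Nasp* *Lyar* (0.10), *Syce1l* (0.13) and *Asrgl1* (0.14), and for *Npm1* *Rpl24*, *Rpl7* and *Exosc9* (0.12 each). Without WT day 20 replicate 2 the 3 genes for *Chaf1a* were the same, whereas *Fancm*, *Ercc3*, *Cerk*, *Eif2ak1*, *Syce1l* and all 3 genes for *Npm1* were no longer among the nearest 3. For these 6 members, the nearest member to *Supt16* was *Nap1l1* (0.21), that to *Ssrp1* was *Chaf1b* (0.21), that to *Chaf1b* was *Nap1l4* (0.17), that to *Npm1* was *Supt16* (0.31), and *Chaf1a* and *Nasp* were each other's nearest (0.32).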

How the data were processed

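Total RNA of testis, depleted of ribosomal RNA, was sequenced with a stranded paired-end protocol. Per the labels and the study's methods, the authors aligned reads to mm10 with STAR 2.7.11b and deposited raw counts per gene from HTSeq (exons, reverse strand, strict intersection, pairs with several alignments dropped). DESeq2 1.22.2 is named in the submitters' processing notes. The labels mention a purification of germ cell fractions, while the tissue is given as testis.

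From these deposited counts, 5 tally rows were set aside. They held, among others, 45.1 to 58.5% of read pairs outside genes and 4.74 to 13.7% with several alignments. Genes passing filterByExpr (minimum count 10, 17170 genes) were scaled by TMM and tested with edgeR 4.0.16 (quasi-likelihood, all 8 groups in 1 model, Benjamini-Hochberg) in R 4.3.3. Contrasts were KO over WT on each day and over their mean, day 26 over day 20 in each genotype, the difference of these, and a joint test. Alternatives were other scalings, DESeq2 1.42.0, no filter, groups fitted alone, a replicate block, a stage score covariate and leaving out each library. The scripts were tested on simulated counts in which 200 genes changed. Log2 changes of 1 passed in 61% of cases for KO over WT on day 20 and in 27% on day 26. For the mean of the days and the WT age change these shares were 86% and 44%. Gene models were GENCODE M21, and promoters came from RefSeq. Intervals are at 95%.

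The members and the further lists were chosen with earlier results of these data known. All members are named. From each further list, the 2 largest rises and 2 largest falls among genes called for the WT age change and up to 3 genes called between genotypes are named, and *Rbbp4* was added as the third CAF-1 subunit after its values were seen. One gene among those most like a member is not reported here. No protein sequence was analysed here.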

Additional observations from a re-analysis of the deposited data

Results flagged for a closer look

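In the 40 member groups of 4 libraries (days 20 and 22), 3 libraries lay farther from their group mates than Dixon's 95% critical value allows, where chance gives about 1 in 20 groups. *Supt16* was at 248 CPM in KO day 22 replicate 4, against 213 to 218 CPM in the other 3 (ratio 0.86), and this library also had the lowest share of read pairs with several alignments. *Chaf1a* was at 71.1 CPM in WT day 22 replicate 2, against 92.9 to 96.9 CPM (ratio 0.84). *Chaf1b* was at 11.9 CPM in KO day 22 replicate 1, against 17.4 to 17.8 CPM (ratio 0.93). WT day 20 replicate 2 stayed below the critical value for each member. It was the lowest library of its group for *Ssrp1*, *Chaf1a*, *Chaf1b*, *Nap1l1* and *Supt6* and the highest for *Supt16*, *Npm1* and *Npm3*.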

How the results depend on the processing

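No call between KO and WT appeared under other scalings, DESeq2, no filter, the stage score or the replicate block. Fitting each comparison's groups alone gave 1 call on day 26 (*Chaf1b*, where 12.8% of genes passed), 1 for day 24 over 22 in WT (9.48%) and 4 for day 26 over 24 in KO (41.8%), and 0 for day 22 over 20 in WT (9.06%) and in KO (0%). For the change from day 20 to day 26 it gave 1 member in WT and 6 in KO (20.2% and 57.1% of genes tested), DESeq2 gave 4 and 6 (42.8% and 51.3%), relative log expression factors 4 and 5 (41.7% and 50.5%), upper-quartile factors 3 and 4 (49.1% and 56.1%), no filter 3 and 3 (33.5% and 41.0%), the replicate block 4 and 3 (45.2% and 53.2%), and the stage score 0 and 0 (0% and 9.98%). The stage score also left 0 calls for day 22 over 20 in WT (0.0641% of genes) and KO (0.00582%), where DESeq2 called 2 in each (23.1% and 15.5%). Leaving out 1 library at a time gave 0 to 1 calls for the mean of the days (1.73 to 10.1% of genes), 2 to 4 (WT, 27.0 to 46.4%) and 2 to 6 (KO, 33.4 to 59.1%, the highest of both without WT day 20 replicate 2) for day 26 over 20, and 0 to 2 for day 22 over 20 in each genotype (12.8 to 21.9% in WT, 0.0233 to 21.5% in KO). Deviations of same-numbered WT and KO libraries correlated at 0.07 to 0.41 on day 20, -0.46 to -0.03 on day 22, 0.39 on day 24 and 0.42 on day 26. Since day 22 and 1 pair of day 20 stayed below 0.1, the replicate numbers were not taken to pair the libraries and the block is an alternative. The cause of these shifts was not tested.

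Signs turned only for values that had not passed or under the stage score. Over the mean of the days, *Nap1l1* was -0.0100 with upper-quartile factors and -0.0284 to 0.0544 without 1 library, and the stage score gave -0.0688 (*Chaf1a*) and -0.0150 (*Nasp*). For the WT age change the stage score gave -0.15 (*Chaf1a*), -0.0540 (*Nasp*), 0.22 (*Nap1l1*) and 0.64 (*Npm1*), and leaving out 1 library gave -0.44 to 0.0618 (*Npm1*) and -0.25 to 0.10 (*Nap1l1*). For the KO age change *Npm3* was 0.0823 (relative log expression), 0.0825 (DESeq2), 0.0215 (no filter), 0.0385 (alone), 0.56 (stage score) and -0.10 to 0.13 without 1 library, *Supt6* was -0.14 (upper quartile), -0.54 (stage score) and -0.0550 to 0.11 without 1 library, and the stage score gave -0.0234 (*Chaf1b*) and 0.0827 (*Npm1*). Among the comparisons of KO with WT on single days, days 24 and 26, with 2 libraries per genotype, gave the widest intervals.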
